A study of Mus musculus with 160 samples.

Results

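The comparison described is of liver taken from mice on the vegetarian diet with liver taken from mice on the Mediterranean diet. Its members are 16 of the 160 libraries of the series, chosen by the tissue, strain and diet on their labels and not by any measured value. There are 8 vegetarian libraries (mice 9 and 12 of strain C57BL/6J, 25 and 27 of A/J, 42 and 43 of DBA/2J, 57 and 59 of SJL) and 8 Mediterranean ones (mice 7 and 8, 22 and 24, 38 and 39, 53 and 54, of the same strains in the same order). Each library is the polyadenylated RNA of 1 mouse, with 2 mice for each strain and diet. The study fed male mice of 4 inbred strains mouse versions of 4 human diets (American, Mediterranean, vegetarian and vegan) and sequenced RNA from 5 tissues of 35 mice. All mice had eaten chow until they were 12 weeks old, then 1 of the 4 diets for 6 weeks, and were taken at 18 weeks. The labels describe the diets as equal in calories and in macronutrient content and as differing in where the nutrients come from; they name neither the fats and proteins used nor the time of day or feeding state at collection. No animal carries a transgene or an induced mutation according to the labels, so the labelled differences are strain and diet, and 2 mice for each combination limit what any single strain can show.

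The liver burns fatty acids in mitochondria and peroxisomes and turns the product into ketone bodies for other tissues. Many enzymes of this route are transcribed under PPAR alpha, a nuclear receptor that binds fatty acids and is most active in hepatocytes during fasting and on diets rich in some unsaturated fats. Hepatocytes make up most of the organ's mass, but Kupffer cells, the resident macrophages of the sinusoids, and the endothelial cells that line those sinusoids also contribute RNA. Secretion of plasma proteins loads the hepatocyte's endoplasmic reticulum, whose chaperones are transcribed through XBP1 and ATF6 when unfolded protein builds up.

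The 16 libraries held 19640482 to 29861660 counts assigned to genes, with a median of 23158389 in the Mediterranean group and 25382408 in the vegetarian group. The tissue label fits the defining markers. The 8 hepatocyte markers summed to 89520.5 to 149077 CPM on the Mediterranean diet and to 76082.7 to 148758 on the vegetarian diet. CPM are counts brought to a common library total, with edgeR's TMM factors for the levels of single genes. Sums of markers, and the Ucp1 level given with them, used the library totals without those factors. The pancreatic gene Amy2a5 was at 0 in all 16 libraries, and the 10 markers of adipocytes, pancreas and muscle together reached at most 177 and 373 CPM. Outside the comparison, the liver libraries of the American C57BL/6J mouse 1 and the vegan C57BL/6J mouse 16 were far more alike than any other pair: the chi-square per degree of freedom over 14618 genes was 3.03, against 17.6 for the next of 496 pairs and 17.6 to 119 for the 16 pairs of mice that share strain and diet. Neither is in the groups compared, both entered the shared liver fit, and leaving them out left 1 gene called, Ucp2. Both also count toward the means of the American and vegan diets and toward the C57BL/6J values of the list scores below. Those means, their order by diet and the scores are given only with both mice included. Within the comparison, SJL Mediterranean mouse 54 stood apart: its 10 MHC class II genes summed to 1182 CPM, where the vegetarian livers reached 324 CPM.

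Of 18636 genes tested, 1 gene passed an adjusted p of 0.05 between the diets across the 4 strains, which is 0.00537% of those tested. It was Ucp2, which fell on the vegetarian diet. Ucp2 encodes a carrier of the mitochondrial inner membrane, made in many tissues and strongly in macrophages, and its transcription in hepatocytes is known to respond to PPAR alpha. In C57BL/6J the Mediterranean mice stood at 56.9 and 53.8 CPM and the vegetarian mice at 19.9 and 23.3 CPM. In SJL the values were 59.4 and 59.6 against 27.0 and 24.2 CPM, and in DBA/2J 73.2 and 41.3 against 32.6 and 35.8 CPM. A/J had the lowest Mediterranean values, 23.5 and 30.3 CPM, against 20.1 and 21.1 CPM on the vegetarian diet. Both vegetarian mice lay under both Mediterranean mice within every strain, whereas across strains the ranges overlapped, with the A/J Mediterranean mice among the vegetarian values of other strains. The same separation in 4 of 4 strains was seen for 38 of the 18636 genes (0.204%). The group means were 49.7 ± 16.7 CPM and 25.5 ± 5.92 CPM (SD, n = 8 each), and the fitted log2 difference was -0.94 (SE 0.134, adjusted p = 0.00125, edgeR's quasi-likelihood test with Benjamini-Hochberg adjustment). Mice on the American diet averaged 28.5 ± 6.92 CPM and those on the vegan diet 39.3 ± 12.6 CPM, so the Mediterranean diet had the highest and the vegetarian diet the lowest mean of the 4.

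The call depended on which libraries and which scale were used. Fitted on the 16 libraries alone, the log2 difference was -0.93 with an adjusted p of 0.138, and on TPM with limma it was -0.68 with an adjusted p of 0.092. Without the C57BL/6J or the SJL mice the values were -0.80 (adjusted p = 0.249) and -0.84 (adjusted p = 0.255). No mouse left out singly ended the call, and without DBA/2J Mediterranean mouse 39, whose 41.3 CPM of Ucp2 is the lower of its pair, 18 genes were called in place of 1. Other settings called far more genes: DESeq2 138, the fit without DBA/2J 422 and the fit without a filter on low counts 885. Ucp2 was called under 25 of 29 alternatives and was lower on the vegetarian diet under all 29.

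Ucp2 (ENSMUSG00000033685) lies on the plus strand of mouse chromosome 7, from 100142055 to 100151227 in GRCm39, the build of the count table. Its promoter is printed because it is the regulatory sequence of the single gene called. The sequence is RefSeq's 250 bases before the start site, in the GRCm38.p6 build at chr7:100493108-100493357, plus strand, read toward the gene. The capitals mark the GC box, GGGCGG on either strand. It is in 38.2% of the 27025 RefSeq promoters of 300 bases, a stretch that adds 50 bases after the start site to the 250 printed.
Ucp2 promoter: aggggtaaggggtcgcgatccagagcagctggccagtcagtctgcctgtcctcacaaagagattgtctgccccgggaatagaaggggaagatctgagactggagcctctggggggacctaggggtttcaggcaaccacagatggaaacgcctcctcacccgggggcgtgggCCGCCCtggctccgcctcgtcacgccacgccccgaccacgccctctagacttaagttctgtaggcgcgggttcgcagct
PPAR alpha and its partner RXR bind a direct repeat, AGGTCA followed after 1 base by AGGTCA. This exact repeat was searched on both strands and is not among these letters. Only 0.0481% of all promoters hold it, so its absence cannot tell whether PPAR alpha binds at Ucp2.

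**Figure D1:**
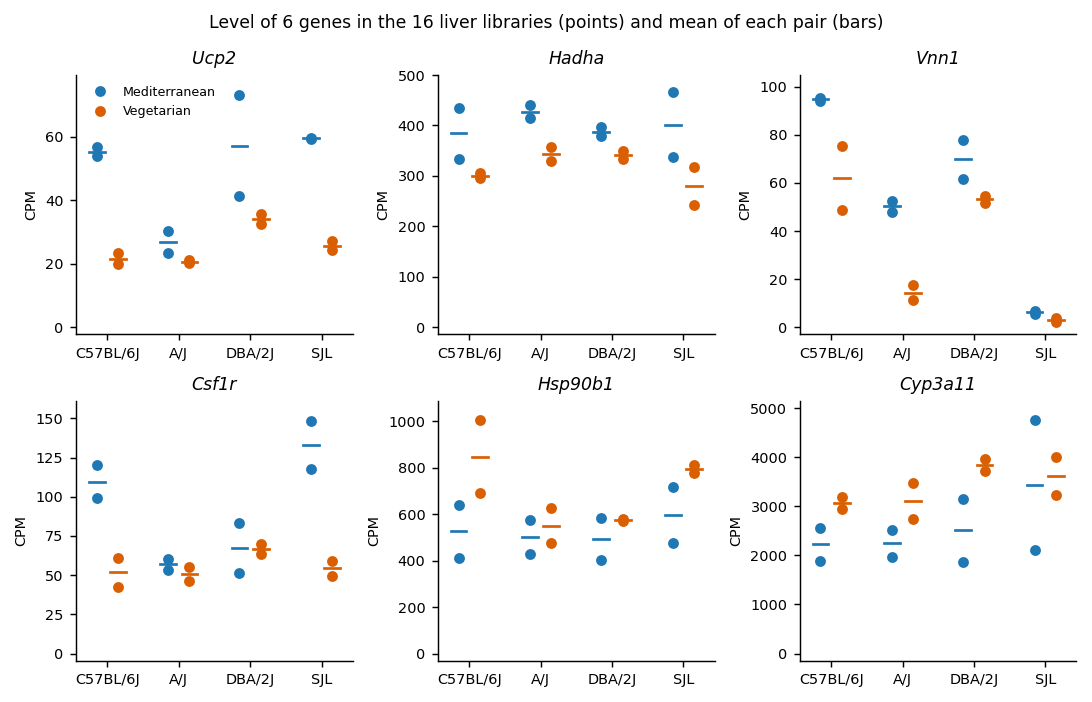
Level of 6 genes in each of the 16 liver libraries. The horizontal axis gives the strain and the vertical axis CPM from 0, blue points are Mediterranean mice, orange points vegetarian mice, and bars the mean of each pair. For Ucp2, Hadha and Vnn1 the orange points lie under the blue ones within every strain; for Csf1r this holds in C57BL/6J and SJL, whose Mediterranean mice stand highest.

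Genes of fatty acid oxidation and ketone formation stood lower on the vegetarian diet almost as a block. Of the 28 members tested, 27 had a lower fitted level, beside 48.4% of all genes, and 22 had an unadjusted p under 0.05 in that direction, beside 8.18% of all genes. This list and those that follow were chosen with earlier results of these data known. None of the 28 passed the adjusted threshold, the smallest adjusted p being 0.117. The median log2 difference of the list was -0.25, beside 0.01 over all genes, with -0.26 in C57BL/6J, -0.36 in A/J, -0.12 in DBA/2J and -0.35 in SJL. There were 22 members lower in all 4 strains, beside 8.76% of all genes, and 27 of 28 had their lowest mean of the 4 diets on the vegetarian diet.

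Hadha, the alpha subunit of the mitochondrial trifunctional protein that carries out the later steps of long-chain oxidation, is an example: the lowest, median and highest Mediterranean library stood at 334, 406 and 466 CPM and the vegetarian ones at 243, 324 and 356 CPM. The pairs did not overlap in any strain, with a log2 difference of -0.34 (SE 0.0827, adjusted p = 0.135). Eci1, the isomerase that feeds unsaturated fatty acids into the cycle, was likewise apart in 4 of 4 strains: the lowest, median and highest Mediterranean library stood at 73.4, 129 and 182 CPM and the vegetarian ones at 55.3, 105 and 118 CPM, a log2 difference of -0.40 (SE 0.0887, adjusted p = 0.117). Slc25a20, which carries acylcarnitines across the inner membrane, stood at 73.5, 108 and 161 CPM against 59.8, 76.3 and 122 CPM in the same order, as in the triplets that follow, a log2 difference of -0.48 (SE 0.107, adjusted p = 0.128). Decr1, the reductase needed for polyunsaturated fatty acids, gave a log2 difference of -0.36 (SE 0.0869, adjusted p = 0.135). Its lowest Mediterranean library, 151 CPM in SJL mouse 54, lay inside the vegetarian range of 135 to 246 CPM. Cpt1a, which commits fatty acids to mitochondrial import, gave a log2 difference of -0.27 (SE 0.118, adjusted p = 0.291). The receptor gene Ppara itself gave -0.23 (adjusted p = 0.586), with -0.64 in C57BL/6J and 0.03 in SJL. The single member with a higher fitted level was Pdk4, the kinase that spares pyruvate during fasting, at 0.17 (SE 0.475), with 2.44 in C57BL/6J and values from -0.71 to -0.42 in the other 3 strains.

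Targets of PPAR alpha outside that list had a median log2 difference of -0.47, lower than for oxidation itself, and were more uneven. Of 21 tested, 20 had a lower fitted level and 9 an unadjusted p under 0.05, and 13 were lower in all 4 strains. Ucp2 is a member of this list and its only gene called. Vnn1, a pantetheinase of the hepatocyte surface, differed widely in level between strains: SJL Mediterranean mice had 6.75 and 5.71 CPM where C57BL/6J ones had 95.4 and 94.2 CPM. Within each strain both vegetarian mice were under both Mediterranean mice, with a log2 difference of -0.90 (SE 0.259, adjusted p = 0.17); A/J had the values farthest apart, 47.9 and 52.5 against 17.7 and 11.2 CPM. Vnn3, another vanin, gave a log2 difference of -0.54 (SE 0.119, adjusted p = 0.117), with 22.8, 49.1 and 79.8 CPM against 13.9, 34.3 and 63.6 CPM. Aldh3a2, which oxidises fatty aldehydes, gave a log2 difference of -0.42 (SE 0.112, adjusted p = 0.158). Cyp4a10, a fatty acid omega-hydroxylase, had the lowest fitted value of the list, -1.52 (SE 0.488, adjusted p = 0.212) with Mediterranean libraries from 10.2 to 1092 CPM and vegetarian ones from 2.09 to 162 CPM. Its relative Cyp4a12a gave -0.48 (SE 0.143). Cyp4a genes are near copies of each other, and fractional counting could divide reads among them, so single Cyp4a values are uncertain. Fgf21, a fasting hormone under PPAR alpha, was the exception at 0.22 (SE 0.493), with 1.53 in C57BL/6J and values from -0.67 to -0.41 in the other strains; the C57BL/6J value rests on mouse 12, whose 46.8 CPM compares with 2.10 to 8.49 CPM in the other 7 vegetarian libraries.

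Scored by library, both lists had their lowest median of the 4 diets on the vegetarian diet. The score of a list is its members' mean log2 level less the mean of all 8 liver libraries of the same strain. For fatty acid oxidation the lowest, median and highest scores were -0.10, 0.08 and 0.35 on the Mediterranean diet and -0.33, -0.12 and -0.01 on the vegetarian diet. Every vegetarian library was under its strain's mean and 7 of 8 Mediterranean libraries were over it, the exception being SJL mouse 54, whose score of -0.10 set the low end of the Mediterranean range. The PPAR alpha targets ran from 0.01 to 0.35 on the Mediterranean diet and from -0.82 to 0.09 on the vegetarian diet, with 8 of 8 Mediterranean libraries over 0 and 7 of 8 vegetarian libraries under it. Vegan mice, which share the liver fit, had medians of 0.09 and 0.28. Without SJL mouse 54 the oxidation list had 27 of 28 lower with 23 at an unadjusted p under 0.05. RefSeq promoters were found for 22 of the 28 oxidation genes and 13 of the 21 PPAR alpha targets, and 0 of them hold that direct repeat. With that exact repeat in 0.0481% of all promoters, the search cannot tell whether PPAR alpha binds these genes.

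**Figure D2:**
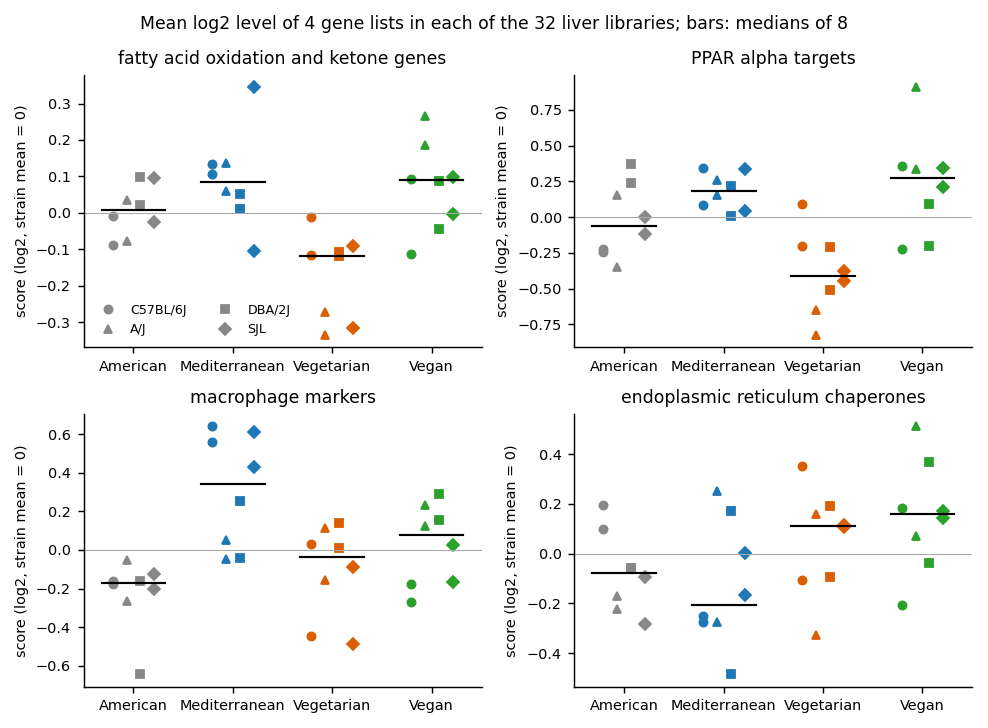
Score of 4 gene lists in each of the 32 liver libraries. The horizontal axis gives the diet and the vertical axis the mean log2 level of the list less its strain's mean, symbols are strains and bars medians of 8 libraries. All 8 vegetarian libraries lie under 0 for fatty acid oxidation, the Mediterranean median is the highest for macrophage markers at 0.34, and for endoplasmic reticulum chaperones it is the lowest at -0.21.

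Several other metabolic lists also had lower fitted levels. The 28 nuclear genes of the respiratory chain had 25 members lower, 9 of them at an unadjusted p under 0.05, and a median log2 difference of -0.18. Examples are Uqcrc1, a core subunit of complex III (-0.30, adjusted p = 0.216), Cox4i1 of complex IV (-0.37, adjusted p = 0.28) and Ndufa9 of complex I (-0.25, adjusted p = 0.253). By strain the respiratory chain median was -0.40 in SJL, -0.24 in C57BL/6J, -0.10 in A/J and -0.02 in DBA/2J. There were 14 of the 28 lower in all 4 strains. Lipid droplet genes were lower for 16 of 19, with 5 at an unadjusted p under 0.05 and a median of -0.22. Pnpla2, the adipose triglyceride lipase that opens triglyceride breakdown, stood at 37.2, 63.4 and 73.1 CPM against 36.9, 42.7 and 50.1 CPM, a log2 difference of -0.47 (SE 0.102, adjusted p = 0.117). Mgll, which completes that breakdown, gave -0.34 (adjusted p = 0.207). Of the apolipoprotein and lipoprotein enzyme list, 15 of 17 were lower with a median of -0.19, among them Lcat, the enzyme that esterifies plasma cholesterol (-0.40, adjusted p = 0.163), and Apoe (-0.36, adjusted p = 0.263). By strain that median was -0.54 in SJL, -0.24 in C57BL/6J, -0.13 in A/J and -0.04 in DBA/2J, with 3 of 17 lower in all 4. The list's score was 0.48 in SJL Mediterranean mouse 53 and 0.40 in C57BL/6J Mediterranean mouse 7. It reached 0.07 in the other Mediterranean livers. Glutathione S-transferases and NRF2 targets were lower for 25 of 27 (median -0.25, 4 at an unadjusted p under 0.05), with Gstt1 at -0.43 and Gss, glutathione synthetase, at -0.32. By strain that median was -0.65 in SJL, -0.29 in C57BL/6J, -0.11 in DBA/2J and -0.05 in A/J, with 6 of 27 lower in all 4. Here too the score was high in Mediterranean mice 53 and 7, at 0.50 in each. It reached 0.12 in the other Mediterranean livers. The Cyp2b and Cyp2c list was lower for 17 of 19 (median -0.28, 3 at an unadjusted p under 0.05), with Cyp2c54 at -0.56 and Cyp2c50 at -0.48. These counts stand against a tilt of abundant genes in general: of the 1338 genes whose mean reached 100 CPM, 1031 had a lower fitted level and 356 of those an unadjusted p under 0.05, with a median of -0.13. Of the 28 oxidation genes 24 are that abundant, and of the 28 respiratory chain genes 18.

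**Figure D3:**
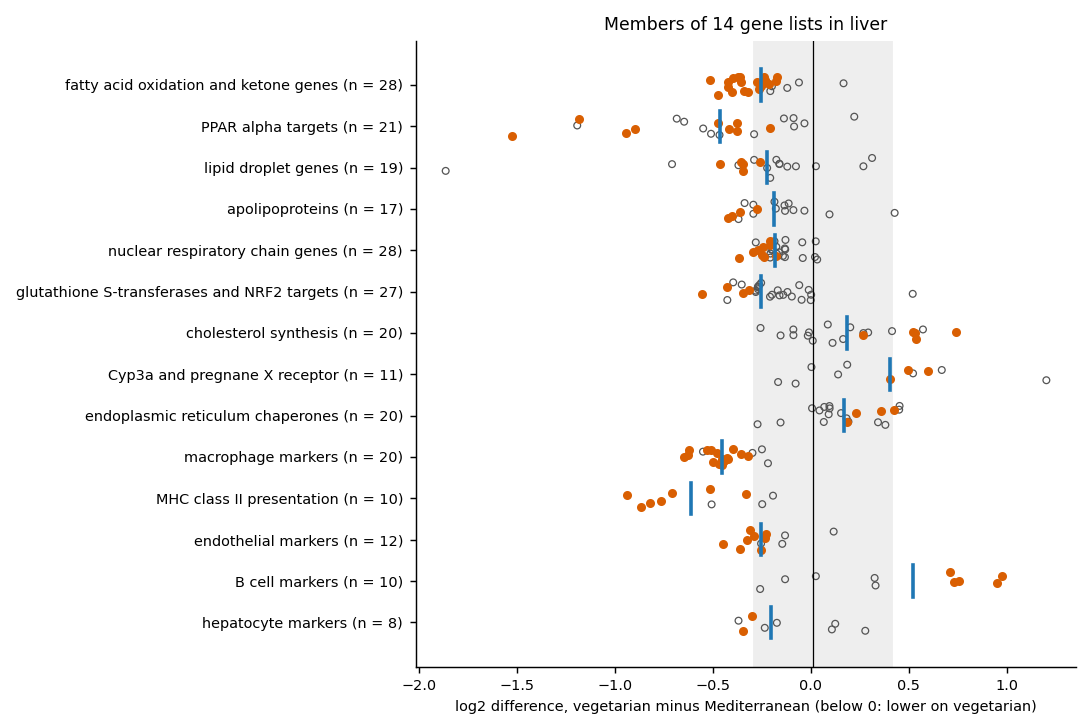
Log2 difference of each tested member of 14 gene lists in liver. The horizontal axis is the fitted log2 difference, vegetarian minus Mediterranean; filled orange points have an unadjusted p under 0.05, open points do not, blue bars are list medians, the grey band spans the middle 80% of all 18636 genes, and the black line is their median of 0.01. Medians run from -0.61 for MHC class II presentation to 0.52 for B cell markers.

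Fitted differences also went with transcript length. When 10153 genes at 5 CPM or more were cut into 5 equal groups by transcript length, the group with the shortest transcripts had a median log2 difference of -0.11 with 71.5% lower, and the group with the longest a median of 0.06 with 34.9% lower. From the shortest to the longest group the median went from -0.24 to 0.12 in SJL, from -0.12 to 0.07 in C57BL/6J and from -0.08 to 0.06 in A/J, and stayed between -0.01 and 0.00 in DBA/2J. Single libraries stood apart here: the median of the shortest group less that of the longest, on the log2 scale and centred by strain, was 0.54 in SJL Mediterranean mouse 53 and 0.37 in C57BL/6J Mediterranean mouse 7. In the other SJL Mediterranean mouse, 54, it was -0.25, beside -0.27 and -0.12 in the SJL vegetarian mice. With an offset per library that levels this trend, the oxidation list kept a median of -0.23 with 27 of 28 lower, the PPAR alpha targets -0.40 with 18 of 21 lower and the macrophage markers -0.34 with 20 of 20 lower. An offset for both length and mean level gave -0.14 for oxidation with 26 of 28 lower and 13 at an unadjusted p under 0.05, -0.35 for PPAR alpha targets and -0.37 for macrophage markers. The respiratory chain then had a median of -0.05 with 17 of 28 lower, the glutathione list -0.09 with 21 of 27 lower and the apolipoproteins 0.00 with 9 of 17 lower. On the TPM scale the median of all genes was 0.14; relative to it the oxidation list stood at -0.22, PPAR alpha targets at -0.39 and the respiratory chain at -0.13, where the respiratory chain's own median was 0.01 and thus on the other side of 0. With the length offset 3 genes were called, all lower: Ucp2, Paqr7 and Abcb4. Whether the length trend has its source in the libraries or in the livers was not tested.

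**Figure D4:**
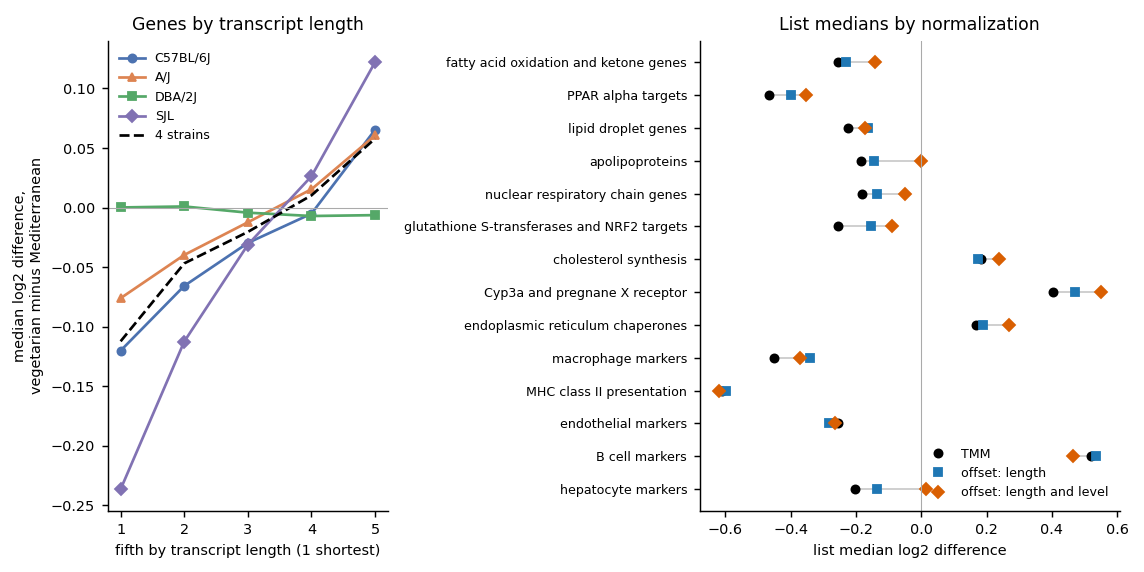
Left, median log2 difference (vertical axis, vegetarian minus Mediterranean) of genes in 5 equal groups by length of the longest transcript (horizontal axis, 1 shortest), by strain and over the 4 strains; the SJL line is the steepest, from -0.24 to 0.12. Right, median log2 difference (horizontal axis) of 14 gene lists with TMM alone and with offsets for transcript length or for length and mean level; the oxidation median moves from -0.25 to -0.14 and the apolipoprotein median to 0.00.

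Several single genes came close to the threshold on the lower side without passing it. Paqr7, a membrane progestin receptor, stood at 60.7, 92.0 and 106 CPM on the Mediterranean diet and 46.4, 59.8 and 68.9 CPM on the vegetarian diet, a log2 difference of -0.59 (SE 0.109, adjusted p = 0.064). The ranges overlapped only between 60.7 and 68.9 CPM, and the pairs were apart in 3 of 4 strains. Abcb4, the floppase that moves phosphatidylcholine into bile, was apart in 4 of 4 strains with 219, 269.7 and 371 against 154, 204 and 282 CPM, a log2 difference of -0.41 (SE 0.0816, adjusted p = 0.0842). Both passed the threshold with the length offset, and neither did with the offset for length and level. Tgfbi, a matrix protein induced by TGF-beta, gave a log2 difference of -0.55 (SE 0.105, adjusted p = 0.0735), and Mxra8, a surface adhesion protein, a log2 difference of -0.41 (SE 0.0842, adjusted p = 0.0842). Retsat, which saturates retinol, spread widely by library: the lowest, median and highest Mediterranean library stood at 269, 585 and 925 CPM and the vegetarian ones at 235, 384 and 480.4 CPM, a log2 difference of -0.66 (SE 0.147, adjusted p = 0.117). Of the retinoid list, in which Retsat was not counted, 10 of 16 were lower with a median of -0.11; Aldh1a1, a retinal dehydrogenase, gave -0.44 and Rdh16, a retinol dehydrogenase, -0.38 (adjusted p = 0.163 and 0.168).

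The 10 genes with the smallest p among those higher on the vegetarian diet in all 4 strains all missed the threshold, with adjusted p from 0.135 to 0.165. Their roles vary: the DNA helicase Helb (0.43), the junction protein Cxadr (0.43), the adaptor Stap2 (0.32), the co-chaperone Dnajb5 (0.53), the RNA-binding protein Hnrnpa3 (0.33), the RNA methyltransferase Zcchc4 (0.43), the lipid kinase Pi4k2b (0.36) and the zinc finger proteins Zfp386 (0.53), Zfp113 (0.51) and Zfp326 (0.38). Zfp386 and Zfp113 were the 2 with pairs apart in 4 of 4 strains; Zfp386 stood at 3.78, 9.66 and 14 CPM on the Mediterranean diet and at 8.16, 12.8 and 18.7 CPM on the vegetarian diet. Over all genes, pairs apart upward in 4 of 4 strains were again 38, or 0.204%, and a higher level in each of the 4 strains was seen for 9.06%.

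Markers of macrophages stood lower on the vegetarian diet for all 20 genes listed. At an unadjusted p under 0.05 there were 16, the smallest adjusted p was 0.117, and the median log2 difference was -0.45. In bulk tissue fewer cells of a type and less RNA per cell cannot be told apart. The list summed to 650.1, 967 and 1560 CPM (lowest, median, highest) on the Mediterranean diet and to 605, 739 and 1022 CPM on the vegetarian diet. The list median was -0.86 in C57BL/6J and -0.84 in SJL but -0.08 in A/J and -0.03 in DBA/2J. Csf1r, the receptor that maintains macrophages, had 120.0 and 99.0 CPM in C57BL/6J and 118 and 148 CPM in SJL on the Mediterranean diet, against 42.6 and 60.9 and 59.3 and 49.3 CPM on the vegetarian diet. In A/J the same comparison gave 53.6 and 60.2 against 54.9 and 46.5 CPM and in DBA/2J 83.1 and 51.4 against 70.0 and 63.6 CPM, so its pairs overlapped there. Across the 4 strains Csf1r gave a log2 difference of -0.64 (SE 0.157, adjusted p = 0.135), and its strain by diet interaction had an adjusted p of 0.466. Vsig4, a complement receptor of Kupffer cells, gave a log2 difference of -0.48 (SE 0.106, adjusted p = 0.117), and Timd4, which marks long-lived Kupffer cells, a log2 difference of -0.62 (SE 0.17, adjusted p = 0.16). All 20 markers had their highest mean of the 4 diets on the Mediterranean diet. The lowest mean was on the American diet for 15, on the vegetarian for 3 and on the vegan for 2. The list's median score was 0.34 on the Mediterranean, 0.08 on the vegan, -0.04 on the vegetarian and -0.17 on the American diet. Without the SJL mice 5 of the 20 had an unadjusted p under 0.05 and the median was -0.29.

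Ucp2 is itself expressed by macrophages, and the macrophage markers stood lower beside it in C57BL/6J and SJL; their part in the Ucp2 result was not tested. In DBA/2J the log2 difference of Ucp2 was -0.74 (SE 0.208) where the macrophage median was -0.03, and in A/J it was -0.39 (SE 0.21) where that median was -0.08. The 10 markers of adipocytes, pancreas and muscle summed to 11.1 to 177 CPM (median 44.4) in the Mediterranean livers and 3.28 to 373 CPM (median 82.5) in the vegetarian ones, with Amy2a5 at 0 in all 16. Of these, Ucp1, the brown fat relative of Ucp2, reached 73.1 CPM on the Mediterranean and 8.78 CPM on the vegetarian diet. The list's score, over its 6 tested members, was highest in DBA/2J Mediterranean mouse 38, at 2.53, the library with the highest Ucp2; the part of these markers in the Ucp2 result was not tested.

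The 10 genes of MHC class II presentation were also all lower in the fit across strains. At an unadjusted p under 0.05 there were 7, and the median was -0.61. By strain it was -1.90 in SJL, -0.49 in C57BL/6J, -0.0003 in DBA/2J and 0.14 in A/J. In A/J 2 of the 10 were lower, and 1 was lower in all 4 strains. The fitted values rested largely on 1 library. Cd74, the invariant chain, stood at 432 CPM in SJL Mediterranean mouse 54, while the median Mediterranean library had 114 CPM. Without that mouse the median was -0.24 and 1 of the 10 had an unadjusted p under 0.05. Endothelial markers were lower for 11 of 12, 8 of them at an unadjusted p under 0.05, with a median of -0.25. Their strain medians were -0.40 in C57BL/6J, -0.27 in A/J, 0.12 in DBA/2J and -0.47 in SJL. In DBA/2J 2 of the 12 were lower, and 1 was lower in all 4 strains, beside 8.76% of all genes. Cdh5, the adhesion protein of endothelial junctions, gave a log2 difference of -0.45 (SE 0.128, adjusted p = 0.163). Eng, a TGF-beta co-receptor, gave a log2 difference of -0.36 (SE 0.107, adjusted p = 0.177). Stellate and fibroblast markers were lower for 11 of 13 (median -0.22). Erythroid markers were lower for 6 of 6 (median -0.44), but strain medians ran from -1.48 in C57BL/6J to 0.89 in A/J, and without C57BL/6J the median was 0.04 with 3 of 6 lower. B cell markers went the other way, with 8 of 10 higher, 5 at an unadjusted p under 0.05 and a median of 0.52. Beside them 51.6% of all genes were higher and 6.85% higher at that p. The strain medians were 1.06 in C57BL/6J, 0.73 in A/J, 0.22 in DBA/2J and -0.14 in SJL, and 2 of the 10 were higher in all 4 strains. In C57BL/6J the list's score was 0.96 in vegetarian mouse 12 and -0.09 in vegetarian mouse 9. B cell markers are scarce in liver: their summed level was 21.7 to 76.0 CPM on the Mediterranean diet and 24.2 to 123 CPM on the vegetarian diet. Hepatocyte markers had 5 of 8 lower (median -0.20), Alb at -0.35 (adjusted p = 0.238) among them, and that median was 0.01 with the offset for length and level. Markers of T and NK cells (9 of 14 lower, median -0.19), neutrophils (2 of 7 lower, median 0.13) and bile duct cells (5 of 8 lower, median -0.06) were mixed.

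Endoplasmic reticulum chaperones stood higher on the vegetarian diet for 18 of 20, with a median log2 difference of 0.17. At an unadjusted p under 0.05 there were 4, and none passed the adjusted threshold; 6 were higher in all 4 strains. Hsp90b1, the abundant chaperone GRP94, had 404, 526 and 717 CPM on the Mediterranean diet and 477, 657 and 1005 CPM on the vegetarian diet, a log2 difference of 0.36 (SE 0.118, adjusted p = 0.215). Hspa5, the master chaperone BiP, gave 0.34 (adjusted p = 0.361), with 0.91 in C57BL/6J and -0.04 in A/J. Dnajc3 and Sdf2l1, both BiP co-factors, gave 0.23 and 0.43, and Xbp1, which encodes the transcription factor, 0.18 (adjusted p = 0.478). The list median was 0.22 in C57BL/6J, -0.03 in A/J, 0.21 in DBA/2J and 0.18 in SJL. Of the 20 genes, 15 had their lowest mean on the Mediterranean diet and 14 their highest on the vegan diet. The offset for length and level gave 19 of 20 higher with 13 at an unadjusted p under 0.05. On TPM 19 of 20 were higher with 14 at that p, where the median of all genes was itself 0.14. Relative to it the list median on TPM was 0.19. So the count at that p, unlike the direction, followed the scale.

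The promoters of this list are shown because 18 of its 20 members stood on the same side and a stress-response motif is known for the group. The endoplasmic reticulum stress element, CCAAT and then, after 9 bases of any kind, CCACG, was searched on both strands of RefSeq's 300-base promoters in the GRCm38.p6 build; 7 of the 18 chaperone genes with a promoter hold it (38.9%), beside 0.137% of all 27025. The element contains a CCAAT box, which by itself is in 88.9% of these promoters and 41.1% of all. Each line gives 59 bases with the element in capitals, on the gene's own strand; Calr and Creld2 hold it on the opposite strand, so its capitals read as the reverse complement.
Hspa5: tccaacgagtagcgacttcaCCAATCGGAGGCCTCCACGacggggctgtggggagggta
Hsp90b1: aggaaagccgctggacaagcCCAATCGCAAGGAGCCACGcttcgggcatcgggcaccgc
Calr: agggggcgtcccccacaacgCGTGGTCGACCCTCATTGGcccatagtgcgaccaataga
Canx: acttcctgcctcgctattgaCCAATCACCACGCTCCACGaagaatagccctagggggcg
Pdia6: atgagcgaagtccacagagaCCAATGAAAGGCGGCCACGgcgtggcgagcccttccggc
Dnajc3: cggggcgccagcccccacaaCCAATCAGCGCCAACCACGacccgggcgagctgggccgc
Creld2: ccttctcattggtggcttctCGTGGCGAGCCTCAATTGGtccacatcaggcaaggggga
Their positions and strands are Hspa5 chr2:34772005-34772063 (plus), Hsp90b1 chr10:86705618-86705676 (minus), Calr chr8:84847055-84847113 (minus), Canx chr11:50325780-50325838 (minus), Pdia6 chr12:17266471-17266529 (plus), Dnajc3 chr14:118937807-118937865 (plus) and Creld2 chr15:88819500-88819558 (plus). Among these 7 the log2 differences were 0.34, 0.36, 0.04, 0.09, 0.10, 0.23 and 0.45 in that order. A match in the letters is a description of the sequence only. Because the motif was already known for this group, its share here cannot tell whether it has a part in the diet difference.

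Cyp3a genes and other targets of the pregnane X receptor, which senses bile acids, drugs and plant compounds, were higher for 9 of 11 with a median of 0.40. At an unadjusted p under 0.05 there were 3 members, and 4 were higher in all 4 strains. Cyp3a11, the main hepatic monooxygenase of this family, had 1872, 2315 and 4759 CPM on the Mediterranean diet and 2742, 3347 and 4013 CPM on the vegetarian diet, a log2 difference of 0.40 (SE 0.17, adjusted p = 0.284). The highest Mediterranean value, in SJL mouse 53, lay over every vegetarian library; in the other 3 strains the vegetarian pair lay over the Mediterranean pair. Slco1a4, an organic anion importer, gave a log2 difference of 0.60 (SE 0.204, adjusted p = 0.217), and Cyp3a59 a log2 difference of 0.50 (SE 0.206, adjusted p = 0.28). The receptor gene Nr1i2 gave -0.17 (adjusted p = 0.449). Cyp3a genes are near copies too, and the same limit on single values holds as for Cyp4a.

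Cholesterol and fatty acid synthesis genes had medians of opposite sign in different strains, with no interaction past the threshold for any gene. Of 20 cholesterol synthesis genes 14 were higher, 5 of them at an unadjusted p under 0.05, with a median of 0.18. The strain medians were 0.95 in A/J, 0.19 in SJL, -0.13 in DBA/2J and -0.39 in C57BL/6J, and without the A/J mice 12 of 20 were lower and the median was -0.07. Mvd, the mevalonate decarboxylase, stood at 14.6 and 10.4 CPM in the A/J Mediterranean mice and 53.1 and 49.8 CPM in the vegetarian ones, a log2 difference of 2.04 there against -0.17 in DBA/2J; its interaction had an adjusted p of 0.529. Fat synthesis genes split evenly, 10 lower and 10 higher, with strain medians of 1.03 in A/J, 0.21 in SJL, -0.47 in C57BL/6J and -0.53 in DBA/2J. Genes of sterol export under the liver X receptors were lower for 7 of 10 (median -0.17, 5 at an unadjusted p under 0.05): Pltp, the phospholipid transfer protein, gave -0.51, Lpcat3, which inserts polyunsaturated fatty acids into phospholipids, -0.29, and the receptor Nr1h3 -0.18 with its pairs apart in 4 of 4 strains (adjusted p = 0.193, 0.216 and 0.294). By strain the sterol export median was -0.37 in SJL, -0.34 in C57BL/6J, -0.07 in DBA/2J and -0.01 in A/J. Of its 10 members 2 were lower in all 4 strains. The list's score was 0.38 in C57BL/6J Mediterranean mouse 7 and reached 0.14 in the other Mediterranean livers.

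Of the iron genes, Fth1, the ferritin heavy chain, stood at 909, 1138 and 1958 CPM against 649, 859 and 1225 CPM (-0.55, adjusted p = 0.178), and Tfrc, the transferrin receptor, at 12.7, 29.2 and 41.8 CPM against 25.2, 34.6 and 60.3 CPM (0.47, adjusted p = 0.246). Hfe gave -0.21, and Steap3, the ferrireductase of the transferrin route, -0.35. Of 15 iron genes 11 were lower, 6 with an unadjusted p under 0.05, and 1 higher at that p. Fth1 has several processed copies in the mouse genome, which leaves its count uncertain.

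No gene was called in the remaining lists. The cell cycle list had 21 of 22 lower (median -0.30), with 3 at an unadjusted p under 0.05. Its strain medians were -0.58 in C57BL/6J, 0.38 in A/J, -0.40 in DBA/2J and -0.22 in SJL, and 2 of the 22 were lower in all 4 strains. These genes are scarce in liver, with a median level of 1.42 CPM. The urea cycle and amino acid breakdown list had 20 of 34 lower (median -0.06), the clock 5 of 19 (median 0.06, none at an unadjusted p under 0.05), acute phase proteins 9 of 22 (median 0.04, none) and interferon-stimulated genes 10 of 24 (median 0.04). Bile acid synthesis had 11 of 14 lower (median -0.11), bile acid transport 11 of 16 (median -0.04), desaturases and elongases 11 of 17 (median -0.12), growth hormone and male-biased genes 17 of 20 (median -0.12) and hormones made by liver 13 of 19 (median -0.09). SREBP2 regulation and sterol uptake had 8 of 13 lower (median -0.03), Ah receptor targets 6 of 10 (median -0.11), the sulfur amino acid and methyl cycle 13 of 20 (median -0.09), the amino acid limitation response 12 of 19 (median -0.13), glucose production and use 9 of 20 (median 0.08) and heat shock genes 8 of 13 (median -0.09). The sign of most of these small medians was the opposite on another scale or with 1 strain or mouse left out; the cell cycle, amino acid limitation and glucose lists kept theirs under all 29 alternatives.

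No gene passed an adjusted p of 0.05 for a strain by diet interaction in edgeR (0%), while 1398 had an unadjusted p under 0.05; DESeq2 called 127. Within single strains 3 genes passed in C57BL/6J (0.0161%) and 0 (0%) in A/J, DBA/2J and SJL, where 797, 315 and 3221 had an unadjusted p under 0.05. In C57BL/6J, Ucp2 fell by 1.36 (SE 0.212, adjusted p = 0.0351) on the log2 scale, and Nfil3 and the unnamed 4930423K06Rik rose, by 1.97 (SE 0.331, adjusted p = 0.0424) and 1.36 (SE 0.225, adjusted p = 0.0391). Nfil3, a repressor tied to the clock and to immune cell development, also had the smallest interaction p (adjusted p = 0.119). In C57BL/6J it stood at 19 and 16.3 CPM on the Mediterranean diet and 67.7 and 70.8 CPM on the vegetarian diet, and in A/J at 47.4 and 58.1 against 23.0 and 22.1 CPM. The pairs were apart in opposite directions, a log2 difference of -1.23 in A/J, while DBA/2J and SJL gave 0.09 and -0.05. Next by interaction p were Eps8l2, an actin regulator (0.73 in C57BL/6J, -0.59 in A/J), Tymp, thymidine phosphorylase (0.92, -0.44), and Ifi30, a lysosomal thiol reductase of antigen presenting cells (-0.78 in C57BL/6J, -0.96 in SJL, 0.13 in A/J). These counts moved with single mice, but leaving out 1 mouse leaves 1 mouse of that strain and diet. Counts from such fits are not given, because they rest on that lone mouse. Without SJL Mediterranean mouse 54 it is mouse 53, and without C57BL/6J Mediterranean mouse 8 it is mouse 7. By transcript length, the median of the shortest group less that of the longest was 0.54 in mouse 53 and 0.37 in mouse 7. Ucp2 had an unadjusted interaction p of 0.0127 and an adjusted one of 0.561.

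**Figure D5:**
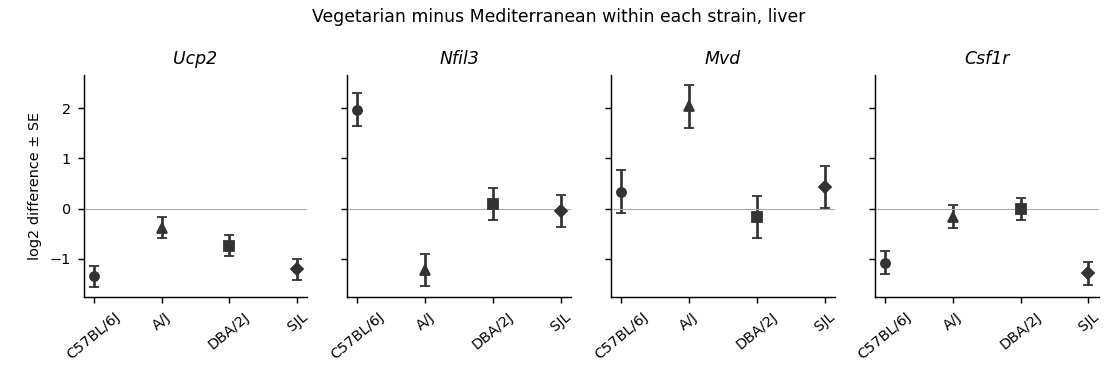
Log2 difference within each strain, vegetarian minus Mediterranean, for 4 genes in liver. The horizontal axis gives the strain, the vertical axis the log2 difference, points are estimates from 2 mice a diet and bars 1 SE. Ucp2 lies under 0 in all 4 strains, Nfil3 runs from 1.97 in C57BL/6J to -1.23 in A/J, Mvd is highest in A/J, and Csf1r is lowest in C57BL/6J and SJL.

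The same comparison in the other 4 tissues, with 1 different Mediterranean mouse in subcutaneous (SJL 55) and 1 in visceral adipose (DBA/2J 40), called 0 genes each, of 20118 to 23508 tested, with edgeR; 280 to 1061 had an unadjusted p under 0.05. Ucp2 gave log2 differences of -0.14 in brown adipose, -0.09 in muscle, -0.12 in subcutaneous and -0.11 in visceral adipose (adjusted p from 0.817 to 1.00). Of the 28 oxidation genes, 21 were lower in brown adipose, 24 in muscle, 26 in subcutaneous and 22 in visceral adipose, with medians of -0.09, -0.14, -0.12 and -0.23. The macrophage list had medians of -0.16, -0.14, -0.19 and -0.03 in the same order, and the PPAR alpha list 0.13, -0.37, -0.82 and -0.13. Hepatocyte markers stood beside these at 3.40 (8 of 8 higher), -0.69 (8 of 8 lower), -1.40 (8 of 8 lower) and -0.05 (6 of 8 lower), and their part in those values was not tested. The median of all genes lay between -0.02 and 0.02 in these tissues. The difference between tissues was not tested.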

How the data were processed

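The data were 1 deposited count table and 1 deposited TPM table, each with a column for each library of the 5 tissues. Per the labels and the series' design text, reads were checked with FastQC, trimmed with Trim Galore, aligned to GRCm39 with HISAT2 under a relaxed mismatch penalty for strains other than C57BL/6J, and counted with HTSeq in fractional mode from a stranded TruSeq mRNA kit; the submitters' processing notes name the same tools. Which annotation release, tool versions and strandedness option were used is not stated in the sources at hand. The authors' values are therefore estimated counts: 74.4% of the non-zero deposited counts were whole to within 1e-06, and all were rounded before testing. The authors' deposited TPM values were used in 1 alternative only, as log2(TPM + 1) over genes with a mean TPM of at least 1.

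Of 56980 gene identifiers, 56236 had a name in GENCODE vM39. Genes were kept with filterByExpr (minimum count 10, total 15), scaled with TMM and tested with edgeR 4.0.16's robust quasi-likelihood test in R 4.3.3, with strain and diet as terms over all 32 liver libraries (25 residual degrees of freedom), so the American and vegan mice shared the estimate of spread. Calls are Benjamini-Hochberg adjusted p under 0.05 over 18636 genes. A model with a mean for each of the 16 strain and diet combinations gave the interaction (3 degrees of freedom) and the values within strains. DESeq2 1.42.0 and limma 3.58.1 gave alternatives, and tables were made in Python 3.11.15 with pandas 2.3.3. The scripts were tested on simulated data. Scores used log2(CPM + 0.5). Length offsets used the longest GENCODE transcript and a lowess span of 0.3. Every library total was at least 18611481 counts; levels in CPM are not adjusted for length and are not compared between genes.

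The libraries compared follow from their labels; the choice to describe this pair of diets in liver, and the 41 lists (680 genes, 660 tested), were made with earlier results of these data known. Named genes have a symbol and a mean of at least 5 CPM: the 10 called in each direction with the largest difference and one sign in 4 strains, filled by smallest p where fewer were called, up to 4 members of smallest p in each list, and the 4 of smallest interaction p. A further 12 were described for their known role after their values were seen: Cpt1a, Ppara, Pdk4, Fgf21, Cyp4a10, Hspa5, Xbp1, Nr1i2, Calr, Canx, Pdia6 and Creld2; so was 4930423K06Rik, as 1 of the 3 genes called in C57BL/6J. The alternatives were another size factor, no filter, other tools, the 16 libraries alone, and leaving out each mouse and each strain; the offsets, leaving out mice 1 and 16, and leaving out mice within strains were added after seeing the data.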

Additional observations from a re-analysis of the deposited data

Results flagged for a closer look

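Of 274 sets of 8 libraries of 1 diet (a gene's level or a list's score), 26 had a library set apart from the other 7 by a gap that is large for the range of its set; chance gives about 1 set in 20. These sets mix 4 strains, so a strain's own level can set its mice apart.

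SJL Mediterranean mouse 54 had the highest Cd74 (431.8 CPM, others 83.7 to 127), H2-Eb1 (197.7 CPM, others 15.8 to 46.9) and H2-Ab1 (156.4 CPM, others 16.7 to 49.2), an MHC class II score of 1.84 where the others reached 0.39, and the lowest Decr1 (151.2 CPM, others 238 to 290.02). SJL Mediterranean mouse 53 had the highest Cyp3a11 (4759 CPM, others up to 3157), Cyp4a12a (920.3 CPM, others up to 631) and Tek (26.1 CPM, others up to 19.5), and a retinoid score of 0.74 where the others reached 0.14.

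SJL vegetarian mouse 57 stood out for Saa1, an acute phase protein (6439 CPM, others 28.5 to 266), with an acute phase score of 1.55 where the others reached 0.16, for Vsig4 (40.0 CPM, others up to 31.0) and for the lowest Atp5f1b (900.2 CPM, others from 1111). In A/J vegetarian mouse 27 Slco1a4 (80.0 CPM, others up to 31.8), Tfrc (60.3 CPM, others up to 41.8) and the bile acid transport score (0.15, others up to 0.01) were highest, and in A/J vegetarian mouse 25 the interferon-stimulated score was 0.47 where the others reached 0.10. A/J Mediterranean mouse 22 had 1092 CPM of Cyp4a10, where the others reached 520.2 CPM.

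Among C57BL/6J mice, vegetarian mouse 12 had the highest Fgf21 (46.8 CPM, others up to 8.49), amino acid limitation score (0.70, others up to 0.07) and B cell score (0.96, others up to 0.20), and vegetarian mouse 9 the highest Cyp2c50 (612.5 CPM, others up to 337) and Sdf2l1 (102.4 CPM, others up to 51.8). Mediterranean mouse 7 had the highest Gss (114.6 CPM, others up to 89.5) and sterol export score (0.38, others up to 0.14). In DBA/2J vegetarian mouse 42 the Cyp2b and Cyp2c score was -0.52, where the others lay at -0.18 or above.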

How the results depend on the processing

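No paired analysis was possible because the vegetarian and Mediterranean livers come from different mice and the mouse numbers pair none of them. Against 1 gene called, the 16 libraries alone gave 0, limma on TPM 0, the fits without C57BL/6J or without SJL 0 each, DESeq2 138 (132 lower), no filter 885 (327 lower), the fit without DBA/2J 422 (291 lower) and the length offset 3; leaving out each mouse gave 1 to 18, the 18 without DBA/2J Mediterranean mouse 39. Without the filter 34930 genes were fitted and the estimate of prior degrees of freedom was infinite. The cause of these moves was not tested. For the interaction, the DESeq2 count that follows used the 16 libraries alone. Against 0 interaction genes, the 16 libraries alone gave 1, no filter 1173, DESeq2 127, leaving out mice 1 and 16 gave 1, and leaving out each mouse 0 to 75, the 75 without SJL Mediterranean mouse 54. Within strains, leaving out each mouse (the lone mouse is assumed to vary like the others) gave 0 to 511 calls in C57BL/6J, the 511 without Mediterranean mouse 8, against 3; 0 to 1 in A/J, 0 to 3 in DBA/2J and 1 to 2963 in SJL, the 2963 without Mediterranean mouse 54, each against 0. Ucp2 kept its sign under all 29 alternatives, with log2 differences of -1.03 to -0.90 and adjusted p of 7.99e-05 to 0.00751 when single mice were left out. The medians of the oxidation, PPAR alpha, macrophage, MHC class II, endothelial, Cyp3a and chaperone lists kept their sign under all 29. The number of list members at an unadjusted p under 0.05 moved more: 7 to 23 for oxidation (22 as reported), 5 to 15 for PPAR alpha targets (9), 5 to 17 for macrophage markers (16), 0 to 16 for the respiratory chain (9) and 1 to 14 for chaperones (4), the low ends of oxidation and the respiratory chain on TPM. Depth was not varied.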
